A study of Homo sapiens with 30 samples.

Results

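The change between 4 h and 8 h of YK-S was measured in TMD8, a human line from a diffuse large B cell lymphoma, of the class called ABC after the activated B cells it resembles. YK-S and YK-R are mirror images of one another. They are the 2 versions of the compound that the study's title names first, which was designed against ETS transcription factors, and S is known as its active version. The comparison takes, by cell line, treatment and time in the labels, 3 arrays at 8 h of YK-S and 3 arrays at 4 h of YK-S, which are 6 of the 30 bead arrays of the study. The 12 TMD8 arrays were fitted together: TMD8 with YK-S at 8 h, TMD8 with YK-S at 4 h, TMD8 with YK-R at 8 h and TMD8 with YK-R at 4 h, with 3 arrays each. The other 18 arrays come from the line U2932 and were not used. TMD8 had no solvent control in the samples used here, so any change with time includes that of time in culture, which cannot be told apart from that of the compound. The labels give no dose. Whether the arrays of a group stand for separate cultures is not stated, and the p-values may therefore reflect technical spread alone.

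Mean signals of the 12 TMD8 arrays ran from 419.6 to 494.1, and 45.5% to 54.6% of probes lay above background. YK-S 8 h replicate 2 had the lowest share of probes above background, 45.5%. This array and YK-R 8 h replicate 3 correlated least with the other TMD8 arrays (median r across probes 0.979 and 0.974). The B cell genes MS4A1, CD79A, CD79B and CD74 lay above background on 12 of 12 arrays, with median log2 values of 10.22, 12.04, 12.67 and 13.13. PAX5 was above background on 8 of 12, with a median of 4.90. Of the 6 T cell markers, CD3D was above background on 0 of 12 arrays and LCK on 12 of 12, with CD3E, CD3G, CD8A and CD2 on 2, 1, 6 and 11. Of the 6 myeloid markers, S100A8 was above background on 0 of 12 arrays and CD14 and MPO on 12 of 12, with LYZ, CSF1R and S100A9 on 1, 2 and 4. Median log2 values were 5.19 for LCK, 5.31 for CD14 and 5.54 for MPO, near the background. The lowest value counted as above background ran from 4.76 to 4.97 across the arrays. Summed over the 6 T cell markers, the log2 values ran from 28.71 to 30.09 on the 8 h arrays and from 28.76 to 29.55 on the 4 h arrays with YK-S. Over the 6 myeloid markers they ran from 29.04 to 31.16 at 8 h and from 29.09 to 30.11 at 4 h. Of the 6 stromal and epithelial markers, DCN and KRT19 lay above background on 12 of 12 arrays, with median log2 values of 5.82 and 6.19. Each of the 6 did so on at least 1 array. Their summed log2 values ran from 31.55 to 33.23 at 8 h and from 30.96 to 31.77 at 4 h. The part of these markers in the results was not tested. On bulk RNA, fewer cells of a kind and less RNA per cell cannot be told apart.

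Most of the genes called here are known as genes that cells switch on in response to interferon. Type I interferons bind the IFNAR1 and IFNAR2 receptor, whose kinases JAK1 and TYK2 pass the signal to the nucleus. There it acts on the interferon-stimulated response element, a short DNA motif in the promoters of interferon-stimulated genes. Their products sense viral RNA, stop translation, degrade RNA or damp the signal itself. In ABC-type lymphoma, interferon signalling is known to be fed by chronic MYD88 and NF-kB activity and held down by SPIB and IRF4.

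With YK-S, 8 of the named genes had higher levels at 8 h than at 4 h, and 7 of them are on the list of interferon-stimulated genes: IFI44L, EPSTI1, USP18, OAS2, DDX60, OAS3 and MX1. CXCL10, a chemokine on the NF-kB and chemokine lists that interferon also induces, was the other. Their levels were 2.18-fold to 3.53-fold higher at 8 h. In all, 9 of 18736 features were called as higher (0.048%) at a limma adjusted p under 0.05, and 0 as lower (0%). The ninth was an unnamed probe, with a log2 difference of 0.85. Without adjustment, 996 features had a p under 0.05, where chance alone gives 937. The median difference over all features was -0.01 on the log2 scale, and 95% intervals extended 0.39 to either side at the median. These intervals are not adjusted for the number of features, so a call needed a larger change. The smallest called difference was 0.85, and the 1.85 of SOCS3 was not called. Most changes of the width of these intervals or smaller were therefore not detectable with 3 arrays a group.

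IFI44L, an interferon-induced gene widely used in blood interferon signatures, measured 8.39, 7.89 and 8.42 log2 on the 8 h arrays, against 6.39, 6.40 and 6.45 on the 4 h arrays. Every 8 h array lay far above every 4 h array, and replicate 2 was the lowest at 8 h. Its level was 3.53-fold higher at 8 h, a log2 difference of 1.82 (SE 0.17, limma adjusted p = 0.0011). Another probe of IFI44L had a difference of 0.18, so the 2 probes disagreed. EPSTI1, which is also induced by interferon, measured 10.73, 10.66 and 10.65 at 8 h and 9.22, 9.18 and 9.30 at 4 h. It had the lowest p of all features, with a log2 difference of 1.45 (SE 0.12, limma adjusted p = 0.00084).

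USP18, a protease that strips ISG15 from proteins and restrains signalling at the interferon receptor, measured 8.28, 8.44 and 8.39 at 8 h and 6.88, 6.98 and 7.24 at 4 h. The log2 difference was 1.33 (SE 0.15, limma adjusted p = 0.0071). OAS2 and OAS3 make the short oligoadenylates that activate the antiviral nuclease RNase L. OAS2 measured 10.21, 10.46 and 10.17 at 8 h and 8.90, 8.93 and 9.05 at 4 h, a difference of 1.32 (SE 0.14, limma adjusted p = 0.0046). The other 3 OAS2 probes gave 1.18, 0.64 and 0.35, all above 0. OAS3 measured 7.99, 7.55 and 7.84 at 8 h and 6.60, 6.51 and 6.45 at 4 h, a difference of 1.27 (SE 0.16, limma adjusted p = 0.015). In all 3 of these genes the groups lay apart.

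DDX60, a helicase linked to the sensing of viral RNA, measured 6.88, 6.98 and 7.18 at 8 h and 5.80, 5.87 and 5.50 at 4 h, a difference of 1.29 (SE 0.16, limma adjusted p = 0.015). MX1, a dynamin-like GTPase that blocks influenza and other viruses, measured 12.95, 13.07 and 12.87 at 8 h and 11.87, 11.55 and 12.10 at 4 h, a difference of 1.12 (SE 0.15, limma adjusted p = 0.019). CXCL10 draws T cells that carry CXCR3. It measured 10.57, 10.20 and 9.99 at 8 h and 8.86, 9.19 and 8.86 at 4 h, a difference of 1.29 (SE 0.19, limma adjusted p = 0.043). The groups did not overlap in any of these, and CXCL10 had the widest spread at 8 h of the 3.

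**Figure D1:**
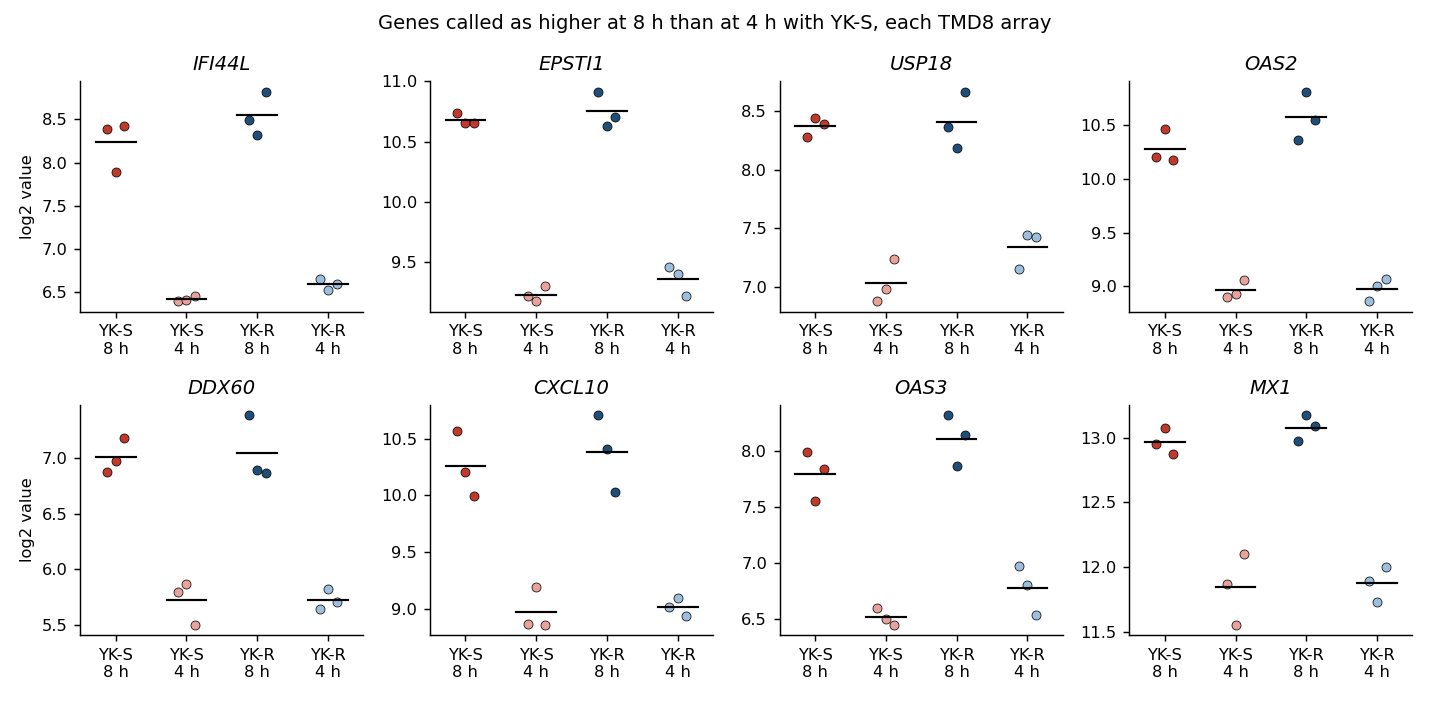
Deposited log2 value of the 8 called genes (vertical axis, own scale per gene, not starting at 0) on each TMD8 array, by form and time; points are arrays and bars are means of 3. For every gene the 3 YK-S arrays at 8 h lie above the 3 at 4 h, and the YK-R arrays show the same order.

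The number of calls depended on single arrays. Leaving out 1 array gave 4 calls without YK-S 8 h replicate 1, 3 without 8 h replicate 3, 2 without 4 h replicate 1, 3 without 4 h replicate 2, 5 without 4 h replicate 3 and 7 without 8 h replicate 2. Leaving out both arrays that correlated least with the others gave 5. EPSTI1 and IFI44L were called in all 15 alternatives, OAS2 in 13, USP18 in 11, OAS3 in 9, MX1 in 8, DDX60 in 7 and CXCL10 in 5. On log2 signals centred on the array median, with neither a quantile step nor a background correction, all 8 genes were still called with smaller differences for some. There the differences were 1.23 for IFI44L, 1.01 for USP18, 0.86 for OAS3 and 0.66 for DDX60.

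The promoters of the called genes are shown because the response element could be looked for in them. The core GAAANNGAAA was searched on both strands, with overlapping matches counted, from 250 bases before to 50 bases after each gene's start in RefSeq promoters (GRCh38.p14). It was found in 6 of the 6 called genes that had an entry, and in 996 of all 27305 promoters of that length (3.65%). USP18 and OAS2 are named only. The 5 genes with a match before the start are printed 5′ to 3′ over the 250 bases before the start, with the core in capitals.
IFI44L promoter (chr1:78620198-78620447, plus strand): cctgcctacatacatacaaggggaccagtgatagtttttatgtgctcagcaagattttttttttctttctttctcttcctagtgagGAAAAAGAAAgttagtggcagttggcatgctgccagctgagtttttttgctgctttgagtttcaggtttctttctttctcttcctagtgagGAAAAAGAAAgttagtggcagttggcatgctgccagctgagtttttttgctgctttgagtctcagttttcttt
EPSTI1 promoter (chr13:42992242-42992491, minus strand): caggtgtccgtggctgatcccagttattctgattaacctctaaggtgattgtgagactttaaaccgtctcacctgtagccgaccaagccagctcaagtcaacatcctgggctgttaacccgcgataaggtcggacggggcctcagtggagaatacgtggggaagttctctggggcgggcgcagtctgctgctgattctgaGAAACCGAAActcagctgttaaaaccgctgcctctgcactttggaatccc
DDX60 promoter (chr4:168318753-168319002, minus strand): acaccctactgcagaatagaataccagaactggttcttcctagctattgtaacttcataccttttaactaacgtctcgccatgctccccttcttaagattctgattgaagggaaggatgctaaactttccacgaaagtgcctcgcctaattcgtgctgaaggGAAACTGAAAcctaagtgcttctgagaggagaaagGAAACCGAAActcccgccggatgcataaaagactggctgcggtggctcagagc
CXCL10 promoter (chr4:76023498-76023747, minus strand): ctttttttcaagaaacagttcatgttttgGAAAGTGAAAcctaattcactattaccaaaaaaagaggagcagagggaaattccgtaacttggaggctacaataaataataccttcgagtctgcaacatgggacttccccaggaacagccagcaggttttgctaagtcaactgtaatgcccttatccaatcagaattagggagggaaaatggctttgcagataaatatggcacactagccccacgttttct
OAS3 promoter (chr12:112938224-112938473, plus strand): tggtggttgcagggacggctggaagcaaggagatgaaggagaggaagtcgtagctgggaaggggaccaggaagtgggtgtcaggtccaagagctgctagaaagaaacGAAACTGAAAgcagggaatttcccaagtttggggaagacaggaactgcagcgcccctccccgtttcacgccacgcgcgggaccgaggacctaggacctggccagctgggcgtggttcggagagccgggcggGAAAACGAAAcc

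The IFI44L cores begin 164 and 73 bases before the start. The EPSTI1 core begins 50 bases before it, and those of DDX60 88 and 53 bases. In CXCL10 the core lies farther out, 221 bases before the start. OAS3 has cores at 143 and 12 bases before the start. The single MX1 match begins at base 12 after the start. Among interferon-stimulated genes that were measured but not called, 14 of 24 with an entry had a match (58.3%). Among the 15 genes named below for lower values at 8 h, 0 of the 11 with an entry had one. Over all named genes tested that had an entry the share was 3.13%, so a count of 0 among 11 says little. A match is a run of letters and says nothing of what was bound.

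Of the 41 genes listed as interferon-stimulated that had a named probe, 38 lay above background on all arrays of at least 1 group. RSAD2, CMPK2 and LGALS3BP did not reach that level. Of the 38, 7 were called as higher and 0 as lower, against 0.048% and 0% of all features. The difference was above 0 in 36 of 38, against 47.2% of all features, and the median was 0.70 log2, against -0.01 over all features. In 28 of 38 all 8 h arrays lay above all 4 h arrays, which held for 4.57% of all features. The list was chosen with earlier results known, and a gene kept only through the group where it is high had to differ, so these counts describe the list.

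**Figure D2:**
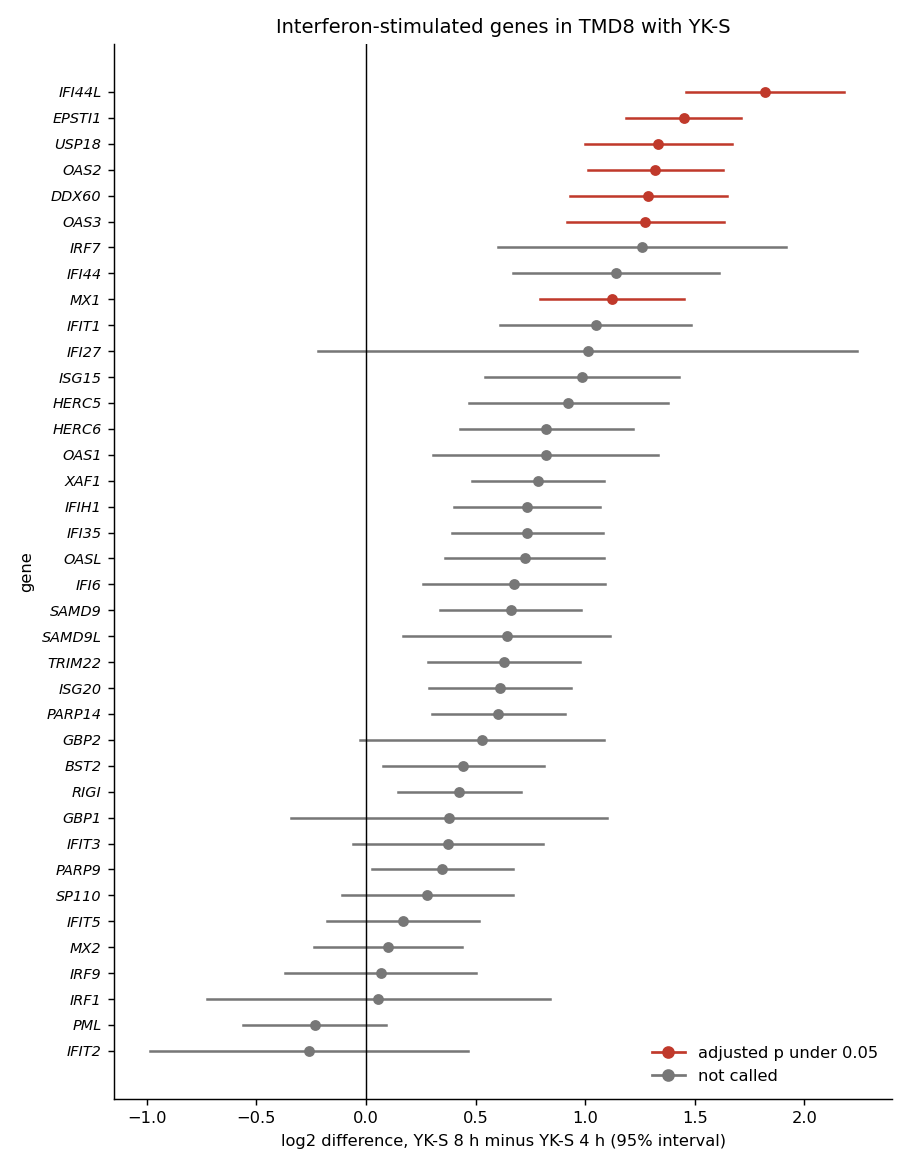
Log2 difference, YK-S 8 h minus YK-S 4 h, for the 38 interferon-stimulated genes measured in TMD8; points are fitted differences and lines are 95% intervals (limma, 3 arrays per group). The 7 called genes are in red, and 36 of 38 points lie above 0.

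Members that were not called but did not overlap between times included IFIT1, which binds viral RNA caps. Its difference was 1.05 (SE 0.20, limma adjusted p = 0.17). OASL, a relative of the OAS enzymes, measured 6.84, 6.55 and 6.76 at 8 h and 6.05, 5.83 and 6.10 at 4 h, a difference of 0.72 (limma adjusted p = 0.35). ISG15, the ubiquitin-like protein that USP18 removes, measured 11.60, 10.86 and 11.24 at 8 h and 10.15, 10.05 and 10.54 at 4 h, a difference of 0.98 (limma adjusted p = 0.25). IFI44, the neighbour of IFI44L in name and in genome, had a difference of 1.14 (SE 0.22, limma adjusted p = 0.17). XAF1, a pro-apoptotic interferon target, had one of 0.79 (SE 0.14, limma adjusted p = 0.13) on its brightest probe. With every kept probe as a feature, its other probe was called, with a difference of 1.33 (limma adjusted p = 0.0048).

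The RNA sensors IFIH1 (MDA5) and RIGI had differences of 0.74 and 0.42, neither called. IRF7, the factor that amplifies interferon production, measured 8.93, 10.06 and 8.95 at 8 h and 8.15, 7.65 and 8.36 at 4 h. Its difference of 1.26 came with a wide spread at 8 h, where replicate 2 stood above the others (SE 0.30, limma adjusted p = 0.37). HERC5, the ligase that attaches ISG15, lay above background on 3 of 3 arrays at 8 h and on 0 of 3 at 4 h. With the background level taken for the 4 h arrays, its mean was 1.75-fold higher at 8 h, with no interval and no call (limma adjusted p = 0.33). With YK-S it met the filter only at 8 h, so the direction of this difference carries no weight.

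Not every classical target was higher. IFIT2 had a difference of -0.26 and PML, which forms nuclear bodies, one of -0.23 on its brightest probe. Dimmer kept probes of PML gave 0.10, 0.16, 0.07 and -0.01, so its probes differed in sign. IRF9 was at 0.07, IRF1 at 0.06, MX2 at 0.10 and IFIT5 at 0.17. The 95% interval of IRF9 ran from -0.37 to 0.51 and that of IRF1 from -0.73 to 0.85, so differences of that size were not detectable. IFI27 measured 8.12, 8.78 and 8.83 at 8 h and 6.27, 7.82 and 8.61 at 4 h. Its groups overlapped, and the difference of 1.01 had an SE of 0.56.

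The ligands and receptors upstream were read from a list added after the values had been seen. IFNA1, IFNA2, IFNG, IFNL1 and IFNL3 lay above background on 0 of 12 arrays. IFNK did on 4, IFNE on 2 and IFNL2 on 1, and none of these was kept for the test. IFNB1 measured 5.07, 5.23 and 5.76 at 8 h and 5.13, 5.57 and 6.07 at 4 h, near the background, with a difference of -0.24. The receptor chains IFNAR1 and IFNAR2 had differences of 0.35 and -0.37, and the kinases JAK1 and TYK2 of 0.25 and 0.11. IRF3, which starts interferon transcription, was at -0.11, and the adaptor MYD88 at -0.12. Of the 24 genes of this list that were measured, 1 was called, which is USP18, against 0.048% of all features.

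Besides CXCL10, which was called, other named genes outside the interferon-stimulated list had low p and were not called. SOCS3, the feedback inhibitor of STAT3 signalling, measured 8.94, 7.94 and 7.67 at 8 h and 5.95, 6.77 and 6.28 at 4 h. The groups lay apart but scattered within each time, and the difference of 1.85 had an SE of 0.36 (limma adjusted p = 0.19). The other SOCS3 probe had a difference of 0.65 (limma adjusted p = 0.98). CPEB4, a regulator of messenger RNA polyadenylation, measured 9.21, 9.28 and 8.60 at 8 h and 7.95, 7.87 and 7.62 at 4 h, a difference of 1.21 (SE 0.21, limma adjusted p = 0.12). PLSCR1 and EIF2AK2, both known interferon targets outside the list, lay apart between times too. EIF2AK2 encodes PKR, the kinase that stops translation on double-stranded RNA, and its difference was 0.78.

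Among NF-kB targets and feedback inhibitors, 1 of 37 was called, which is CXCL10, against 0.048% of all features. The difference was above 0 in 30 of 37, against 47.2% of all features, with a median of 0.39. In 10 of the 37 the 8 h arrays all lay above the 4 h arrays, against 4.57% of all features. The members given next were chosen after their values were seen. ICAM1, an adhesion molecule, measured 7.05, 6.82 and 6.59 at 8 h and 5.79, 6.09 and 5.71 at 4 h, a difference of 0.95. TNF, the inflammatory cytokine, measured 11.57, 10.92 and 9.76 at 8 h and 9.65, 9.26 and 8.62 at 4 h. Its difference of 1.58 had an SE of 0.51, since the arrays of each time spread widely. NFKBIA, which encodes the inhibitor IkB alpha, had a difference of 0.90. RELA, RELB and NFKB2, which encode NF-kB subunits, were below 0.

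In the list of cytokines of the IL10, IL6 and STAT3 pathway, 0 of 20 were called and 16 were above 0, against 47.2% of all features, with a median of 0.22. PIM1, a survival kinase induced by STAT3, measured 10.68, 10.25 and 10.46 at 8 h and 9.89, 9.80 and 9.59 at 4 h, a difference of 0.70 (limma adjusted p = 0.48). Of the 21 chemokines and homing receptors, 15 were above 0, with a median of 0.27.

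No feature was called as lower at 8 h, and the values below describe the 15 named genes of lowest p whose arrays lay apart. E2F7, a repressor of cell cycle genes, measured 7.79, 7.74 and 7.73 at 8 h and 8.29, 8.39 and 8.45 at 4 h. The arrays were tight within each time, and the difference was -0.62 (SE 0.11, limma adjusted p = 0.12). With array weights its adjusted p was 0.049, and with no filter on dim probes it was 0.012. TSC22D3, the glucocorticoid-induced leucine zipper protein, measured 6.64, 6.12 and 6.57 at 8 h and 7.72, 7.36 and 7.42 at 4 h, a difference of -1.06 (SE 0.19, limma adjusted p = 0.13). THAP1, a zinc finger factor linked to dystonia, had a difference of -0.53, called only with no filter on dim probes (limma adjusted p = 0.019). The probes of THAP1 disagreed, since the other 2 had differences of 0.03 and -0.05.

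GPAT3, which builds triglycerides, had a difference of -0.86 and PRKAB2, a subunit of the energy sensor AMPK, one of -0.63. CD226, a receptor of killer lymphocytes, was at -0.75 and SLFN11, which sensitises cells to DNA damage, at -0.50. CITED2, a partner of CBP and p300, was at -0.65. The others were IBA57 at -0.75, CDCA4 at -0.70, USP37 at -0.70, CMBL at -0.66, ENO2 at -0.65, ETV5 at -0.94 and DHCR7 at -0.84.

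**Figure D3:**
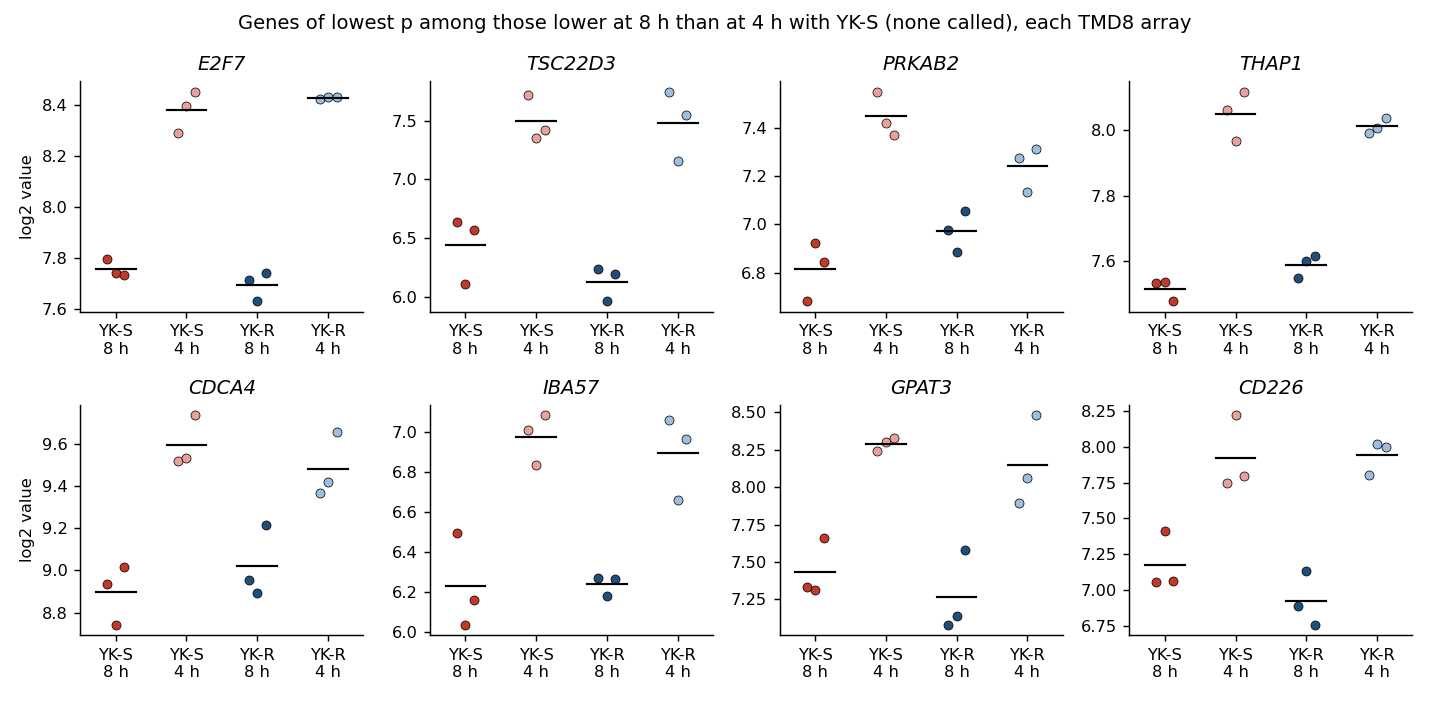
Deposited log2 value (vertical axis, own scale per gene, not starting at 0) of the 8 genes of lowest p among those with lower values at 8 h of YK-S, on each TMD8 array; points are arrays and bars are means of 3. None was called with YK-S; the 8 h arrays lie below the 4 h arrays in all 8 panels with YK-S, as in E2F7 with a difference of -0.62.

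DHCR7 stands on the cholesterol and fatty acid synthesis list, where 25 of 30 members were below 0, against 9888 of all 18736 features. The list median was -0.22, with 0 called. DHCR7, which makes cholesterol in the last step of its pathway, measured 8.45, 8.40 and 8.62 at 8 h and 9.40, 9.05 and 9.54 at 4 h. MVK, the mevalonate kinase, measured 6.53, 6.09 and 7.27 at 8 h and 7.66, 7.46 and 7.70 at 4 h, a difference of -0.98 (SE 0.27, limma adjusted p = 0.58). In 7 of the 30 all 8 h arrays lay below all 4 h arrays, against 5.82% of all features. The median ran from -0.42 to -0.11 over the alternatives.

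In the list of DNA replication and S phase, 37 of 43 were below 0, against 9888 of all 18736 features. The list median was -0.16, with 0 called. UHRF1, which keeps DNA methylation through replication, measured 10.83, 10.47 and 10.80 at 8 h and 11.13, 11.14 and 11.25 at 4 h, a difference of -0.47. RRM2, the ribonucleotide reductase subunit, measured 8.93, 8.72 and 9.09 at 8 h and 9.19, 9.72 and 9.58 at 4 h, a difference of -0.58. Mitosis and spindle genes had a median of -0.06, with 24 of 44 below 0. Glycolysis and hypoxia genes were below 0 in 30 of 36, with a median of -0.10. Of the p53 targets, 20 of 27 were above 0, against 47.2% of all features, with a median of 0.13. With YK-R, 10 of the 27 p53 targets were above 0, against 8664 of all 18736 features, with a median of -0.09. The difference between forms was called for 0 of the 27. Other list medians with YK-R were 0.38 for NF-kB targets, 0.20 for the IL10, IL6 and STAT3 list and 0.19 for chemokines and homing receptors. They were -0.22 for cholesterol and fatty acid synthesis, -0.09 for DNA replication, -0.21 for mitosis and -0.04 for glycolysis and hypoxia.

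**Figure D4:**
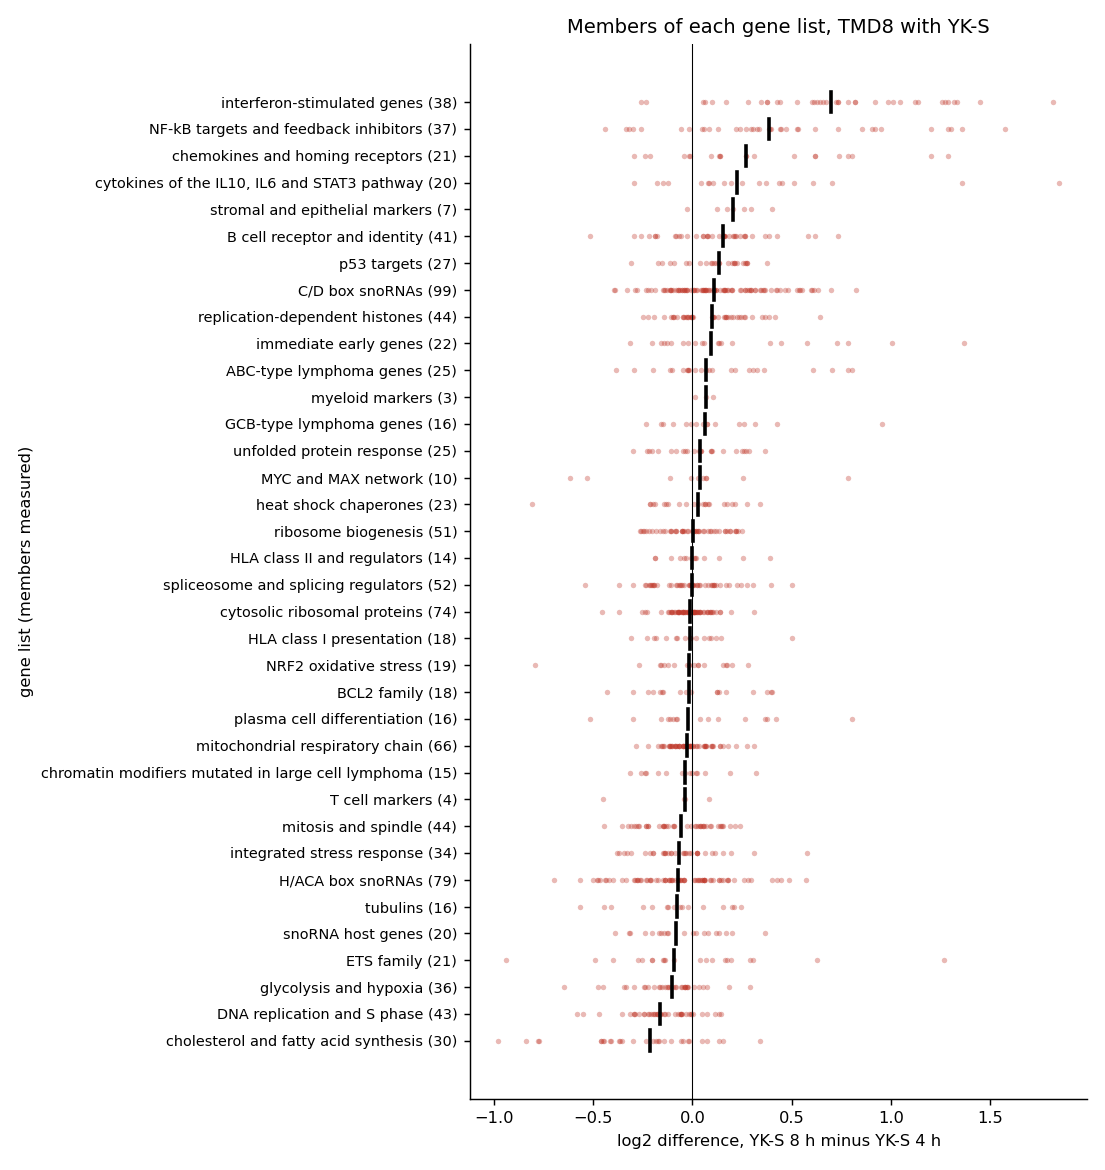
Log2 difference, YK-S 8 h minus YK-S 4 h, of each measured member (red points) of 36 gene lists, with the list median as a black bar and the number of members measured in brackets. Interferon-stimulated genes have the highest median, 0.70, and cholesterol and fatty acid synthesis the lowest, -0.22; lists share some members.

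SPIB, the ETS factor named in the study's title and an ABC-type lymphoma factor, measured 12.37, 12.05 and 12.45 at 8 h and from 11.84 to 12.10 at 4 h. The groups overlapped, and the difference was 0.31 (95% interval -0.01 to 0.63, limma adjusted p = 0.95). IRF4, a factor that binds DNA together with SPIB, measured 11.50, 11.98 and 10.88 at 8 h and 10.45, 11.05 and 10.44 at 4 h, a difference of 0.81 with overlapping arrays (limma adjusted p = 0.82). MYC measured 11.83, 11.62 and 10.89 at 8 h and 10.82, 10.51 and 10.65 at 4 h, a difference of 0.79 (limma adjusted p = 0.80). The other MYC probe had a difference of 1.19 (limma adjusted p = 0.73). DHX9, the RNA helicase that the compound is known to part from the ETS fusion EWS-FLI1, was at -0.05.

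Of the 21 ETS family genes measured, 0 were called, and 10 were above 0, against 47.2% of all features. ETV5, a target and effector of MAP kinase signalling, measured 5.54, 5.48 and 4.68 at 8 h and 6.19, 6.12 and 6.20 at 4 h. It lay above background on 2 of 3 arrays at 8 h, so the difference of -0.94 rests partly on a value near the background. The other ETV5 probe, above background on 3 of 3 arrays at each time, had a difference of -0.34 (limma adjusted p = 0.91). SPIC, a relative of SPIB, measured 10.11, 10.42 and 8.85 at 8 h and 8.25, 8.91 and 8.42 at 4 h, a difference of 1.27 (SE 0.39, limma adjusted p = 0.69). B cell receptor and identity genes had a median of 0.15, with IRF8, a germinal centre factor, at 0.74.

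The mirror-image form gave the closest comparison. YK-R was sampled at the same times on the same kind of arrays, and its comparison shares no array with that of YK-S. With YK-R, 19 features were called as higher at 8 h (0.101%) and 8 as lower (0.0427%). All 9 features called with YK-S were among the 19, as was SOCS3, at 2.26 with YK-R. Among the 8 were E2F7 at -0.73, TSC22D3 at -1.35 and CD226 at -1.02, which had lower values with YK-S too. CACUL1 and an unnamed probe, also among the 8, were at 0.10 and 0.15 with YK-S. Without YK-R 8 h replicate 2 the YK-R calls numbered 292, and without YK-R 4 h replicate 3 they numbered 3, so the count rests on single arrays. Leaving out YK-R 8 h replicate 1 gave 7 calls, 8 h replicate 3 gave 11, 4 h replicate 1 gave 4 and 4 h replicate 2 gave 4.

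Of the 38 interferon-stimulated genes, 13 were called as higher with YK-R and 7 with YK-S, against 0.101% and 0.048% of all features. The median difference was 0.70 with YK-S and 0.83 with YK-R. With YK-R, 27 of the 38 had all 8 h arrays above all 4 h arrays, against 6.1% of all features, while 8.58% of all features had them all below. Tested directly, the change with YK-S minus the change with YK-R was called for 0 of 18736 features (0%) in limma, with 725 features at a p under 0.05 before adjustment, where chance gives 937, and the lowest adjusted p was 0.82. Without YK-R 8 h replicate 2 that count was 38, all of them below 0. For IFI44L the changes were 1.82 with YK-S and 1.96 with YK-R, a difference of -0.14 (95% interval -0.65 to 0.37). For EPSTI1 they were 1.45 and 1.39 in the same order, a difference of 0.06 (-0.31 to 0.43). The widest gap among the 8 named genes was that of OAS2, 1.32 with YK-S and 1.60 with YK-R, a difference of -0.28 (-0.72 to 0.16). These intervals allow differences of some size, so the test does not show that the forms act alike. No dose is given, so matched doses cannot be stated.

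**Figure D5:**
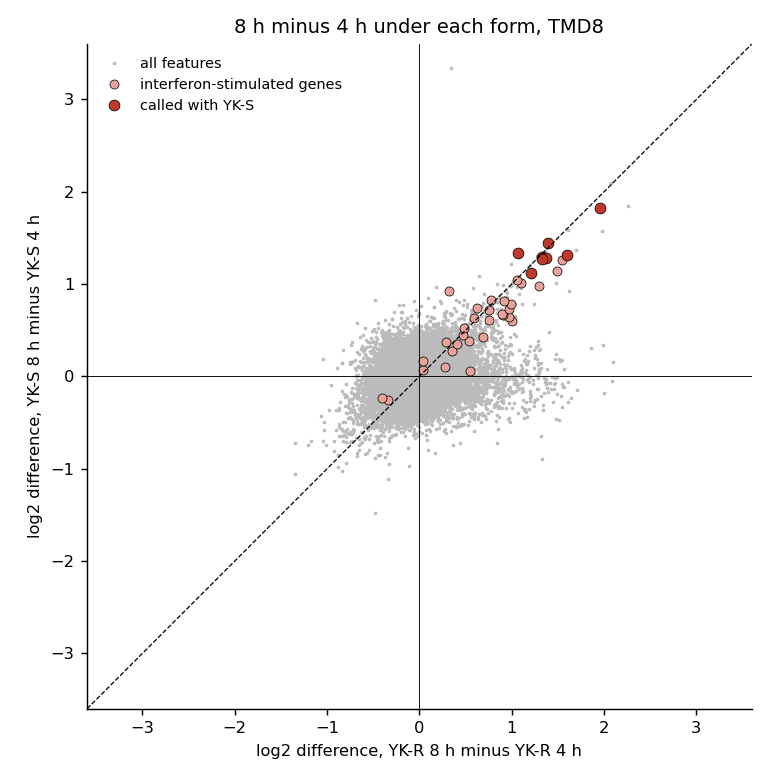
Log2 difference, 8 h minus 4 h, with YK-S (vertical axis) against that with YK-R (horizontal axis) for 18736 features in TMD8; red points are the 8 genes called with YK-S, pink points the other interferon-stimulated genes, grey points all features, and the dashed line marks equal values. The 8 genes lie near the line, at 1.12 to 1.82 with YK-S; the highest grey point is an unnamed probe that was not called.

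None of the 5 named genes of lowest p for the difference between forms was called for that difference. CACUL1, which takes part in cullin and cell cycle control, measured 5.73, 5.80 and 5.96 at 8 h and 5.74, 5.71 and 5.76 at 4 h with YK-S. With YK-R it measured 5.29, 5.29 and 5.13 at 8 h and 5.92, 5.90 and 5.97 at 4 h. The change with YK-S was 0.10 and that with YK-R -0.69, which was called as lower with YK-R (limma adjusted p = 0.039). The difference between forms was 0.79 (SE 0.16, limma adjusted p = 0.96). SESN1, a stress-induced p53 target, had changes of 0.27 with YK-S and -0.62 with YK-R. PBLD, CTAGE11P and SECTM1 had differences between forms of 0.99, -0.84 and -0.82.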

How the data were processed

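Bead arrays of total RNA were labelled as biotinylated cRNA, per the labels' protocols, and read with GenomeStudio, per the submitters' processing notes. The authors deposited bead signals as linear intensity and a series table of log2 values, whose log base was read from their range. The 12 TMD8 columns share 1 median (4.85), as quantile normalization would give, and the first is rounded to 2 decimals. Some differences depended on the deposited processing, as for DDX60. It was at 1.29 on the deposited values and at 0.66 on median-centred log2 signals without background correction. Of 47231 probes, 30113 had 1 symbol. A probe was kept if above background (p under 0.05, normal background at the mode of each array's log2 signals) on all 3 arrays of a group. The brightest kept probe stood for a gene, leaving 18736 features (12202 named). These log2 values were fitted by limma (version 3.58.1, R 4.3.3), leaving 8 residual degrees of freedom. Tests were two-sided, with Benjamini-Hochberg adjustment over all features and calls at an adjusted p under 0.05. The script was tested on simulated data.

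Members, lists and tests were chosen with earlier results of these data known. Named genes are the called ones, those of lowest p with arrays that do not overlap (to 15 each way), 2 per list where none is called, SPIB, IRF4, MYC and DHX9, and 5 for the difference between forms. Alternatives covered normalization, filter, probe choice, arrays fitted, variance model and single arrays left out. Some listed genes are not reported here.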

Additional observations from a re-analysis of the deposited data

How the results depend on the processing

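The count of 9 features called with YK-S came to 2 when only the 6 YK-S arrays were fitted and ran from 2 to 7 when 1 array was left out. Leaving out both arrays that correlated least with the others, an alternative chosen after seeing the data, gave 5. It was 8 with normexp-corrected signals, 12 with median-centred signals, 11 with no filter on dim probes and 13 with array weights. The count of 27 with YK-R came to 1 with only the 6 YK-R arrays, ran from 3 to 292 when 1 array was left out, and came to 9 without both arrays. The count of 0 for the difference between forms ran from 0 to 38 when 1 array was left out, with the 38 found without YK-R 8 h replicate 2. Fewer arrays leave fewer degrees of freedom; beyond that the cause was not tested.

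The median of the interferon-stimulated genes ran from 0.66 to 0.73 over its 15 alternatives. The differences whose sign turned were small and uncalled. DHX9 was at 0.065 with median-centred signals, and leaving out 1 array gave -0.154 to 0.094. Leaving out 1 array gave -0.433 to 0.086 for IFIT2, -0.10 to 0.205 for IRF9 and -0.207 to 0.301 for IRF1. IRF1 was at -0.082 with array weights and at -0.078 without both arrays.

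No paired analysis was run, because the labels carry no replicate number and tie no arrays together across groups. Whether arrays of the same accession-order number belong together was not tested. With 3 arrays a group and signals near background for dim probes, small changes lie beyond these data.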

Other observations

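Small nucleolar RNAs, which guide the modification of ribosomal RNA, moved little with time under YK-S. Of all 18736 features, 8848 were above 0 with YK-S and 8664 with YK-R. Of the 99 C/D box members measured, 67 were above 0 with YK-S, with a median of 0.11 log2, against 16 with YK-R, with a median of -0.16. The median of the difference between forms was 0.31, and 0 members were called. SNORD117 had a change of 0.70 with YK-S and -0.20 with YK-R. The 79 H/ACA box members had medians of -0.07 with YK-S and -0.24 with YK-R.

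Immediate early genes were not called. KLF2, a quiescence factor of lymphocytes, measured 10.95, 11.42 and 10.76 at 8 h and 10.39, 10.23 and 10.31 at 4 h, a difference of 0.73 (limma adjusted p = 0.31). STAP1, an adaptor on the GCB-type list, had a difference of 0.96, and TAP1, the peptide transporter of HLA class I presentation, one of 0.50. The histone gene H2AC11 was at 0.65, AURKA at -0.35, TUBB2B at -0.41, MNT at -0.62 and TNFRSF17, a plasma cell receptor, at -0.52. HLA class II genes had a median near 0, ribosomal protein genes -0.01 and unfolded protein response genes 0.04.

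IFI27 varied widely among the arrays of a group. Its lowest array was replicate 1 in each of the 4 groups, at 8.12 for YK-S 8 h, 6.27 for YK-S 4 h, 8.18 for YK-R 8 h and 6.57 for YK-R 4 h. TNF was lowest on replicate 3 in each group, at 9.76 for YK-S 8 h, 8.62 for YK-S 4 h, 9.94 for YK-R 8 h and 8.28 for YK-R 4 h. The numbers follow accession order, and no label ties arrays of the same number together.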
